A study of Rattus norvegicus with 20 samples.

Results

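The GABA and glycine signalling genes are 29 genes of fast and slow inhibition that were measured in the hippocampus of female rats. They were chosen by name and not by their values, though with earlier results of these data known. All 29 had a row among the 17168 gene symbols of the count and RPM tables. By role they comprised 12 GABA-A receptor subunits, 2 GABA-B receptor subunits, 3 glycine receptor subunits, 5 genes of GABA synthesis, breakdown and transport, 3 genes of the postsynaptic scaffold and chloride transport, and 4 genes that mark interneuron classes. None of the 29 passed the test between transgenic and wild-type rats or between treated and untreated transgenic rats. For 23 members in the first comparison and 22 in the second, the 95% interval of the difference lay within 1.5-fold in either direction. That is 79.3% and 75.9% of the members, against 70.2% and 72.2% of all genes. Among members with a mean of at least 10 counts the shares were 92.0% and 78.6%. Over all genes with such counts they were 83.8% and 83.9%. The differences between rats of the same group were larger for several subunits. In some groups, but not in all, they went with the levels of region markers in the same libraries. This was seen after the values were known, and its cause was not tested.

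RNA was sequenced from 20 libraries, each from the hippocampus of a single rat aged 4 months. The wild-type Fischer 344 rats without treatment are called WTNT, and the untreated TgF344-AD rats, which carry human APPsw and PS1ΔE9 transgenes under the prion promoter, are called TGNT. The treated transgenic rats, called TGTR, received diazoxide (DZ) at 10 mg/kg/day and dibenzoylmethane (DIB) at 200 mg/kg/day in the chow from day 52 of age. The genotype comparison set 5 TGNT against 5 WTNT rats, and the treatment comparison set 6 TGTR against 4 other TGNT rats, so no rat was in both. All rats of the treatment comparison carried both transgenes, and no treated wild-type rats were analysed here. The sample labels give the left hippocampus and the methods of the study give the right, so the side is uncertain.

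The libraries of the genotype comparison held 5848458 to 9926088 estimated counts and those of the treatment comparison 9215039 to 14175594. Levels are given as RPM, reads scaled to a common library size, which was done separately in the 2 tables and lets levels be compared only within a table. Human and rat App transcripts share a symbol. In the genotype table App measured between 1031 and 1160 RPM in WTNT and between 2071 and 2364 RPM in TGNT. The libraries of that table thus matched their genotype labels. App was at 2216 to 2757 RPM in the 10 transgenic rats of the treatment table, which has no wild-type rats to set beside them. Summed markers of the dentate gyrus (174.1 to 401.0 RPM), CA1 (492.2 to 1154.4 RPM) and CA3 (607.9 to 1607.3 RPM) were present in every library, whereas 3 of the 4 cerebellar markers stayed at 7 counts or fewer. The TGTR library of replicate 5 held 3766.8 summed RPM of 11 choroid plexus markers. Replicate 6 held 302.2 RPM, and the other TGTR libraries held 97.9 to 143.4 RPM. With whole tissue, fewer cells of a type and less RNA per cell cannot be told apart.

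GABA is the main inhibitory transmitter of the forebrain. Interneurons make it from glutamate with glutamate decarboxylase and load it into vesicles. GABA-A receptors are chloride channels built of several subunits, glycine receptors are related chloride channels, and GABA-B receptors act through G proteins. The direction of the chloride current depends on the balance between a transporter that exports chloride and another that imports it. In the hippocampus the α5 and δ subunits are known for receptors outside synapses, which carry a steady inhibitory current.

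Sequence upstream of the gene start was looked at for 3 receptor subunit genes, Gabra3, Gabrg3 and Glra3, a choice made after their values were seen. All 3 were highest in replicates 3 and 5 among WTNT and in replicate 1 among TGNT of the treatment table. In TGNT of the genotype table their orders differed, with replicate 1 lowest in Gabra3 and second highest in Gabrg3. The 250 bases before each gene start, from RefSeq on the GRCr8 build, are printed 5′ to 3′ on the strand of the gene, which is the minus strand for all 3, with capitals at matches to the motifs named below. The regions are chrX:155543871-155544120 for Gabra3, chr1:117382458-117382707 for Gabrg3 and chr16:39857007-39857256 for Glra3, none of it taken from the rn6 build to which the reads were aligned.
Gabra3: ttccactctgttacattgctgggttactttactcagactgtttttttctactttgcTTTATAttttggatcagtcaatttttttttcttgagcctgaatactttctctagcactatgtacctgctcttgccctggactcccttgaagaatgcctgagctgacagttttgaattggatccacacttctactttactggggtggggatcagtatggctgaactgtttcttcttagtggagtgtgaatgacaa
Gabrg3: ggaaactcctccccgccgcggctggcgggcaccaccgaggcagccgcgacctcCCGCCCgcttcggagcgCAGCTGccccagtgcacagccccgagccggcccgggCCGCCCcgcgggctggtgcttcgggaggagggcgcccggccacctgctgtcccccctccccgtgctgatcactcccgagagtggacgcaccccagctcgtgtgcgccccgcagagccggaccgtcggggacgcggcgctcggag
Glra3: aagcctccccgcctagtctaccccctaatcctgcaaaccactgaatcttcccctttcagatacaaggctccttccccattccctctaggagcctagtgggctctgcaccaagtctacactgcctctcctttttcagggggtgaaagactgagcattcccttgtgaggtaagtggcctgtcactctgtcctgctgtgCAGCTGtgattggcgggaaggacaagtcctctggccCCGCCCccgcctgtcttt

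The motifs searched on both strands were the GC box (GGGCGG), the TATA box (TATAAA), the cyclic AMP response element (TGACGTCA) and an E-box (CAGCTG). None of them overlaps another in the printed windows. The Gabra3 window held a TATA match that begins 194 bases before the gene start and no GC box. The Gabrg3 window held 2 GC boxes, which begin 197 and 144 bases before the start, and an E-box 180 bases before it. The Glra3 window held an E-box 54 bases and a GC box 18 bases before the start. In windows of 250 bases before and 50 bases after the start, 26 of the 29 members had an entry in the RefSeq table. The GC box was present in 20 of these 26 and in 33.1% of all 33469 promoters. The TATA box and the E-box were each present in 3 members, against 14.2% and 15.1% of all promoters. The cyclic AMP response element was in 0 members and in 1.83% of all promoters. The median GC content of the member promoters was 68.0%, against 51.7% over all promoters, and Gabra3 had the lowest of the members at 39.3%. These matches describe the sequence and are no evidence of binding.

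The genotype comparison asks whether the transgenes go with other levels of inhibitory signalling genes at 4 months. Of the 29 members, 21 had a log2 fold change above 0 and 8 below 0 in TGNT over WTNT, with a median of 0.08. Over the 25 members with a mean of at least 10 counts the median was 0.05, with 18 above 0, and over all 11356 genes with such counts it was 0.0062, with 52.4% above 0. The call rule was an adjusted p under 0.05 in edgeR's quasi-likelihood test with Benjamini-Hochberg adjustment over all genes, together with at least 1.5-fold. No member was called, and DESeq2 and limma called none either, while 2 of all genes (0.0116%), App among them, were called. Unadjusted p-values under 0.05 were found for 2 members, which compares with 3.23% of all genes. Among genes that averaged 10 counts or more the share was 3.89%, and 1 of the 2 members is among them. The RPM of the groups overlapped for every member, and 0.513% of all genes did not overlap.

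The treatment comparison asks the same of DZ and DIB in transgenic rats. There, 16 members had a log2 fold change above 0 and 13 below 0 in TGTR over TGNT, with a median of 0.05. The sign of this median was not stable: it was -0.0122 with a replicate block, -0.0235 in the same rats without the block, a fit chosen after the data were seen, and -0.0173 without TGNT replicate 2. Over the 12029 genes averaging 10 counts or more, 50.1% were above 0 and the median was 0.0002. No member was called by the quasi-likelihood test, by DESeq2 or by limma, and of all genes 0% were called by the quasi-likelihood test. Over all genes DESeq2 called 3, limma 0 and the likelihood ratio test of edgeR 5. Unadjusted p-values under 0.05 were found for 3 members, against 4.91% of all genes and 6.14% of those averaging 10 counts or more. The groups overlapped in RPM for every member, and 1.15% of all genes did not overlap. Across the comparisons 11 members were above 0 in both, 3 were below 0 in both and 15 had opposite signs.

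**Figure D1:**
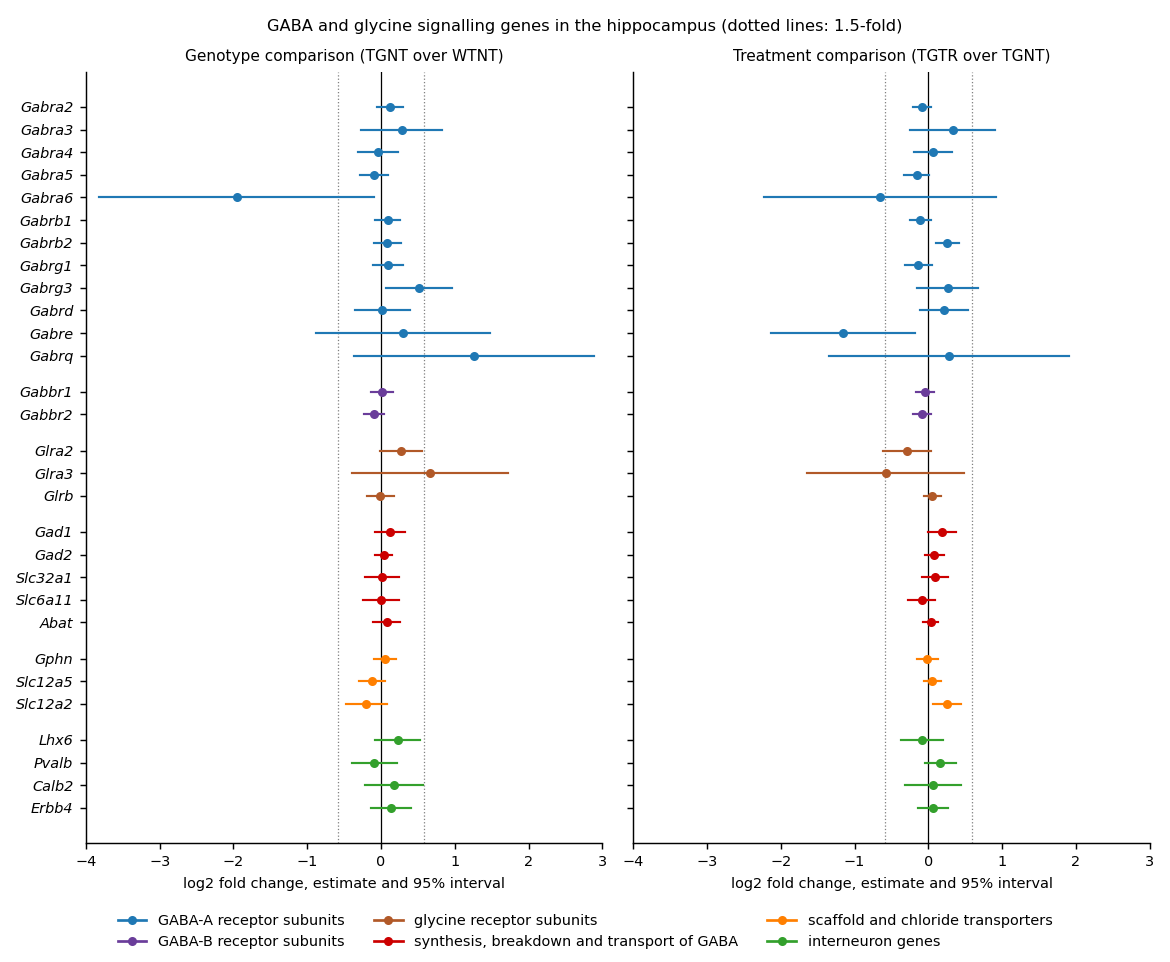
The x axis gives the log2 fold change of each of the 29 members with its 95% interval, TGNT over WTNT at left and TGTR over TGNT at right, coloured by role, with dotted lines at 1.5-fold. Most intervals lie between the dotted lines, and the widest belong to Gabra6, Gabre, Gabrq and Glra3, which had few reads.

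Gad1 and Gad2 encode the glutamate decarboxylases that make GABA. Gad1 measured 255, 271, 348, 246 and 348 RPM in WTNT replicates 1 to 5 and 325, 312, 340, 295 and 313 RPM in TGNT. WTNT replicates 3 and 5 lay above every TGNT rat and the other 3 WTNT rats below all of them, and the log2 fold change was 0.12 (standard error 0.095, 95% interval -0.09 to 0.32). In the treatment comparison Gad1 measured 268, 221, 202 and 213 RPM in TGNT and 226 to 282 RPM with a median of 260.0 RPM in TGTR. TGNT replicate 1 lay within the range of the treated rats and the other 3 lay below it. The log2 fold change was 0.19 (standard error 0.0873, 95% interval -0.0022 to 0.38), with an unadjusted p of 0.0523 and an adjusted p of 0.99 (edgeR's quasi-likelihood test). Without TGNT replicate 1 it was 0.28 with an unadjusted p of 0.00304 and an adjusted p of 0.305.

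Gad2 was among the least variable members. It measured 169, 183, 167, 184 and 185 RPM in WTNT and 186, 177, 173, 182 and 187 RPM in TGNT, and the log2 fold change was 0.03 (95% interval -0.08 to 0.15). In the treatment table Gad2 was at 126, 125, 122 and 136 RPM in TGNT and at 127 to 152 RPM, median 132, in TGTR. The groups overlapped in both tables, and the log2 fold change under treatment was 0.08 (95% interval -0.04 to 0.21).

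Slc32a1, the vesicular transporter that loads GABA and glycine, gave nearly the same mean in both groups of the genotype table. It measured 31.7, 32.8, 38.2, 29.9 and 35.4 RPM in WTNT and 34.6, 41.2, 35.9, 26.3 and 31.0 RPM in TGNT. Its log2 fold change was 0.01 (95% interval -0.22 to 0.24). The second table had it at 77.7, 66.4, 63.4 and 63.7 RPM in TGNT and 60.6 to 82.1 RPM, median 71.4, in TGTR, with a log2 fold change of 0.09 (95% interval -0.09 to 0.26). Slc6a11, the GABA transporter of astrocytes, and Abat, which breaks GABA down, had log2 fold changes of 0.0027 and 0.08 with genotype and of -0.09 and 0.03 with treatment. All 5 genes of this role had intervals within 1.5-fold in both comparisons.

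GABA-A subunits were the largest role. Above 0 were 9 of 12 with genotype, with a median of 0.10, and 6 of 12 with treatment, with a median of -0.01. The 7 subunits Gabra2, Gabra4, Gabra5, Gabrb1, Gabrb2, Gabrg1 and Gabrd had intervals within 1.5-fold in both comparisons. Gabra2, an α subunit of synaptic receptors, had a log2 fold change of 0.13 with genotype and -0.09 with treatment. Those of the α4 gene Gabra4 were -0.04 and 0.06, those of Gabrb1 were 0.09 and -0.11, and those of Gabrg1 were 0.10 and -0.14.

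Gabrb2 encodes a β subunit of synaptic receptors and had the lowest p of the members with treatment. It measured 57.3, 48.1, 51.5 and 62.3 RPM in TGNT, and 59.8 to 71.2 RPM with a median of 65.1 RPM in TGTR. TGNT replicates 1, 2 and 3 lay below every treated rat, whereas replicate 4 lay among the lower treated rats. The log2 fold change was 0.26 (standard error 0.0735, 95% interval 0.10 to 0.42), a 1.2-fold higher mean in TGTR, with an unadjusted p of 0.00385 and an adjusted p of 0.957 (edgeR's quasi-likelihood test). The exact two-sided permutation test of the RPM gave p = 0.019, which was 0.99 after adjustment over all genes, where the smallest value 4 against 6 rats can give is 0.00476. Its log2 fold change lay between 0.20 and 0.32 in the fits that each left out 1 rat. In the genotype table Gabrb2 measured 68.8, 83.8, 88.6, 71.2 and 74.1 RPM in WTNT and 74.5, 80.4, 77.8, 94.0 and 83.0 RPM in TGNT. These groups overlapped over most of their range, with a log2 fold change of 0.09 (95% interval -0.09 to 0.27).

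Gabra5 encodes the α5 subunit, which the hippocampus expresses strongly. It measured 298, 287, 260, 280 and 243 RPM in WTNT and 223, 213, 280, 275 and 285 RPM in TGNT. The second table had Gabra5 at 172, 206, 210 and 201 RPM in TGNT and 149 to 193 RPM, median 180, in TGTR. The lowest TGNT rat, replicate 1, lay among the treated rats and the other 3 lay above them all. The log2 fold change was -0.09 (95% interval -0.28 to 0.10) with genotype and -0.16 (95% interval -0.32 to 0.0034) with treatment, the latter with an unadjusted p of 0.0542 and an adjusted p of 0.99 (edgeR's quasi-likelihood test).

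Gabrd encodes the δ subunit, which dentate granule cells use outside synapses. It measured 15.1, 14.7, 10.1, 16.6 and 11.0 RPM in WTNT and 19.2, 14.6, 12.2, 10.5 and 11.3 RPM in TGNT. Its levels with treatment were 16.3, 19.3, 21.0 and 21.4 RPM in TGNT and 17.5 to 27.7 RPM, median 22.1, in TGTR. The rats overlapped in both tables, and the log2 fold changes were 0.02 (95% interval -0.36 to 0.39) and 0.21 (95% interval -0.11 to 0.53). Dentate gyrus markers were above 0 in log2 fold change for 1 of 5 measured genes in each comparison, with medians of -0.06 in both. Among WTNT the 2 rats with the lowest Gabrd, replicates 3 and 5, were also the 2 with the lowest summed dentate gyrus markers, at 174.1 and 252.1 RPM against 326.0 to 401.0 RPM in the other 3, and TGNT replicate 1 was the highest of its group in both, with 382.0 RPM of those markers. TGNT replicate 2, however, had the second highest Gabrd at 14.6 RPM and the lowest dentate gyrus sum of its group at 233.6 RPM. Of the rats with treatment data, TGNT replicate 1 and TGTR replicate 5 were the lowest of their groups in both. The part of granule cell content in these levels was not tested.

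Gabrg3, a γ subunit gene, had the lowest p of the better measured members with genotype. It measured 6.46, 5.93, 11.2, 6.49 and 12.9 RPM in WTNT and 13.1, 12.4, 14.8, 9.08 and 11.5 RPM in TGNT. WTNT replicates 3 and 5 lay within the range of the transgenic rats and the other 3 lay below it. The log2 fold change was 0.51 (standard error 0.211, 95% interval 0.06 to 0.96), with an unadjusted p of 0.0278 and an adjusted p of 1 (edgeR's quasi-likelihood test). The exact two-sided permutation test gave p = 0.0794, which was 1 after adjustment over all genes, against a smallest possible value of 0.00794 for 5 against 5 rats. With single rats left out, the log2 fold change lay between 0.39 and 0.70, and its unadjusted p was no longer under 0.05 without WTNT replicate 1, 2 or 4 or TGNT replicate 1 or 3. In the treatment table Gabrg3 measured 12.8, 7.37, 7.44 and 6.44 RPM in TGNT, with replicate 1 apart from the other 3, and 8.44 to 12.8 RPM with a median of 9.95 RPM in TGTR. There the log2 fold change was 0.26 (95% interval -0.15 to 0.67), and without TGNT replicate 1 it was 0.52 with an unadjusted p of 0.00407 and an adjusted p of 0.341.

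Gabra6, Gabre and Gabrq had few reads. Gabra6 encodes a subunit typical of cerebellar granule cells. It was at 1 or 2 counts in each of the 5 WTNT rats, at 2 counts in TGNT replicate 3 and at 0 counts in the other 4 TGNT rats, and the unadjusted p of 0.041 in edgeR's quasi-likelihood test rests on these reads, so no fold is given. As RPM these were 0.331, 0.205, 0.127, 0.341 and 0.319 in WTNT and 0.254 in TGNT replicate 3. Gabra6 of the treatment table was at 0 to 5 counts in both groups. Gabre, the ε subunit gene, measured 0.613, 0.771, 1.35 and 2.67 RPM in TGNT of the treatment table and 0.286 to 1.06 RPM, median 0.619, in TGTR. This corresponded to 7.0 to 29.2 estimated counts in TGNT and 4.0 to 15.08 in TGTR. TGNT replicates 3 and 4 lay above all treated rats and the other 2 within their range, with a log2 fold change of -1.16 (standard error 0.452), an unadjusted p of 0.0235 and an adjusted p of 0.964 (edgeR's quasi-likelihood test). Without TGNT replicate 4 its log2 fold change was -0.63 with an unadjusted p of 0.174. With genotype Gabre measured 0.497, 0.205, 0.127, 0.853 and 0.637 RPM in WTNT and 0.499, 0.905, 0.254, 0.267 and 0.748 RPM in TGNT, at 1 to 6 counts per rat. Gabrq, the θ subunit gene, lay between 0 and 0.761 RPM in WTNT and between 0.125 and 2.49 RPM in TGNT. With treatment it lay between 0.171 and 2.45 RPM in TGNT and between 0.214 and 2.12 RPM in TGTR, and its log2 fold changes were 1.26 (95% interval -0.37 to 2.89) and 0.28 (95% interval -1.34 to 1.91). Over all settings its value with treatment ran from -0.27 to 1.80, and the highest, without TGNT replicate 1, had an unadjusted p of 0.0326 and an adjusted p of 0.642 (edgeR's quasi-likelihood test).

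**Figure D2:**
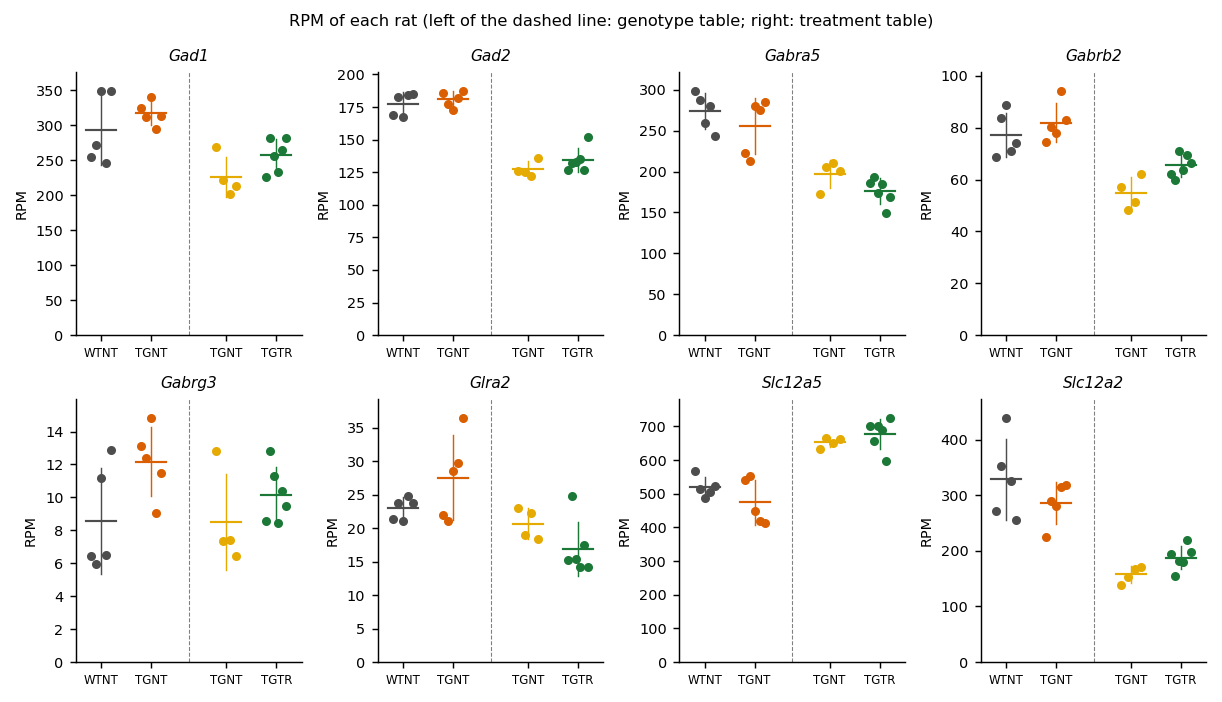
The y axis gives RPM and each point is a rat, in the 4 groups of the 2 tables, with lines at the mean and 1 SD for 8 members. Groups overlap in every panel, Gabrb2 has 3 of 4 TGNT rats below the treated rats, and WTNT and TGNT of the treatment table split in Gabrg3 into rats near 6 to 7 RPM and rats above 11 RPM.

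GABA-B receptors are dimers of the products of Gabbr1 and Gabbr2. Gabbr1 measured 1271, 1147, 1119, 1152 and 1340 RPM in WTNT and 1341, 1266, 1244, 1108 and 1111 RPM in TGNT, and the log2 fold change was 0.02 (95% interval -0.13 to 0.16). With treatment, Gabbr1 measured 1448, 1490, 1294 and 1347 RPM in TGNT and 1200 to 1395 RPM, median 1373, in TGTR, and the log2 fold change was -0.05 (95% interval -0.17 to 0.08). The lowest treated rat was replicate 5, the library with the most choroid plexus markers. For Gabbr2 the log2 fold changes were -0.10 (95% interval -0.23 to 0.04) with genotype and -0.09 (95% interval -0.21 to 0.03) with treatment. The estimated counts of both genes were fractional in all rats, so some of their reads were shared with other genes. The same held for Lhx6 in all rats, for Glra2 in all but 1 and for Gabre in most.

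Glycine receptors of the forebrain combine α subunits with the β subunit encoded by Glrb. Glrb measured 129, 142, 163, 126 and 127 RPM in WTNT and 125, 121, 136, 154 and 143 RPM in TGNT, with a log2 fold change of -0.01 (95% interval -0.19 to 0.17). With treatment, Glrb measured 86.5, 92.2, 99.6 and 98.3 RPM in TGNT and 93.6 to 107 RPM, median 96.1, in TGTR, with a log2 fold change of 0.05 (95% interval -0.06 to 0.17). Both groups overlapped closely in both tables. Glra2, the α subunit gene of the immature brain, stood at a log2 fold change of 0.27 (95% interval -0.01 to 0.56) with genotype and -0.29 (95% interval -0.61 to 0.03) with treatment. In WTNT it ranged from 21.0 to 24.8 RPM and in TGNT from 21.0 to 36.4 RPM. TGNT replicates 3, 4 and 5 lay above the wild-type range, and replicates 1 and 2 were at 22.0 and 21.0 RPM. With treatment, Glra2 lay between 18.4 and 23.0 RPM in TGNT and between 14.2 and 24.8 RPM in TGTR, where replicate 2 was the highest and the other 5 lay below every TGNT rat. Without TGTR replicate 2 its log2 fold change was -0.44 with an unadjusted p of 0.00067 and an adjusted p of 0.455 (edgeR's quasi-likelihood test). Glra3 had 1 to 25 counts per rat and log2 fold changes of 0.66 (95% interval -0.40 to 1.72) and -0.58 (95% interval -1.64 to 0.48). Without WTNT replicate 3 the genotype value of Glra3 was 1.17.

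Slc12a5 encodes the chloride exporter of mature neurons. It measured 567, 514, 487, 505 and 524 RPM in WTNT and 542, 552, 448, 418 and 413 RPM in TGNT. TGNT replicates 1 and 2 lay within the wild-type range and the other 3 lay below it, with a log2 fold change of -0.12 (95% interval -0.30 to 0.05). Without TGNT replicate 2 it was -0.20 with an unadjusted p of 0.0298. With treatment, Slc12a5 measured 634, 666, 652 and 663 RPM in TGNT and 596 to 724 RPM, median 694, in TGTR, with a log2 fold change of 0.05 (95% interval -0.07 to 0.17). Gphn, the scaffold protein that anchors GABA-A and glycine receptors, had log2 fold changes of 0.05 and -0.02.

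Slc12a2 encodes the chloride importer, which is also expressed by glia and by the choroid plexus. It measured 271, 353, 438, 325 and 255 RPM in WTNT and 224, 289, 280, 315 and 318 RPM in TGNT, with a log2 fold change of -0.20 (95% interval -0.48 to 0.08). It was -0.09 without WTNT replicate 3, -0.12 without TGNT replicate 1 and -0.28, with an unadjusted p of 0.0414, without WTNT replicate 5. In the treatment table it measured 139, 153, 168 and 171 RPM in TGNT and 155 to 219 RPM, median 188, in TGTR. Treated replicate 2 lay among the TGNT rats and the other 5 lay above them. The log2 fold change was 0.25 (standard error 0.0868, 95% interval 0.07 to 0.44), with an unadjusted p of 0.0119 and an adjusted p of 0.964 (edgeR's quasi-likelihood test), and the exact two-sided permutation test gave p = 0.0476, which was 0.992 after adjustment over all genes. The ratio of exporter to importer was not tested.

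Levels of 11 oligodendrocyte markers, none of which was at 0 counts in any rat, differed between groups in the same direction as Slc12a2. All 11 were lower in TGNT than in WTNT, with a median log2 fold change of -0.19, and all 11 were higher in TGTR than in TGNT, with a median of 0.22. Their summed level was between 4909.5 and 11161.4 RPM in WTNT and between 4626.9 and 8432.5 RPM in TGNT, and between 4422.7 and 6998.2 RPM in TGNT and 5203.6 to 7939.3 RPM in TGTR of the treatment table. From highest to lowest, the order of the rats in Slc12a2 and in the summed markers was the same in WTNT, namely replicates 3, 2, 4, 1 and 5. In TGNT of the genotype table both ran 5, 4, 2, 3 and 1. The orders differed in the treatment table. There TGNT ran 4, 3, 2 and 1 in Slc12a2 and 3, 4, 2 and 1 in the markers. TGTR ran 5, 6, 1, 3, 4 and 2 in Slc12a2 and 1, 6, 4, 3, 5 and 2 in the oligodendrocyte markers. Summed choroid plexus markers ran in the same order as Slc12a2 in WTNT and in TGNT of both tables. In TGTR they ran 5, 6, 1, 4, 3 and 2. TGTR replicate 5 had the highest Slc12a2 of its group at 219 RPM, with only 5242.5 RPM of oligodendrocyte markers. It is the library with the most choroid plexus markers, all 11 of which had a log2 fold change above 0 with treatment. Summed choroid plexus markers lay between 118.2 and 269.5 RPM in WTNT and between 97.4 and 203.3 RPM in TGNT. In TGNT of the treatment table they lay between 87.0 and 135.5 RPM. The sums of the genotype table lean on Enpp2, which by itself measured between 94.9 and 256.0 RPM there, while Ttr reached 11.7 RPM. Folr1, Clic6, Aqp1, Otx2, Sostdc1 and Tmem72 were at 0 counts in some rats. Without TGTR replicate 5 the log2 fold change of Slc12a2 was 0.21 with an unadjusted p of 0.0178 (edgeR's quasi-likelihood test). That fit kept TGTR replicate 6, which had 302.2 RPM of choroid plexus markers and the second highest Slc12a2 of its group at 197 RPM. The part of these cells in the Slc12a2 level was not tested.

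**Figure D3:**
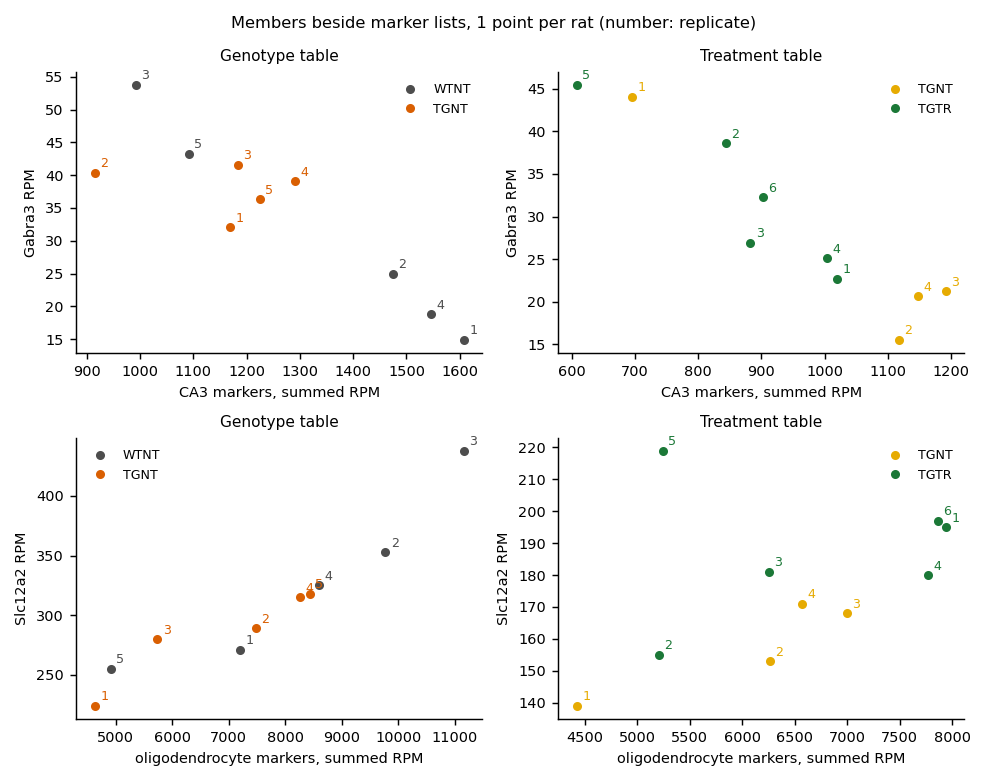
Each point is a rat, numbered by replicate. The y axis gives RPM of Gabra3 (top) or Slc12a2 (bottom) and the x axis the summed RPM of CA3 or oligodendrocyte markers, with each table in its own panel. WTNT replicates 3 and 5, with fewer CA3 markers, lie higher in Gabra3 than the other WTNT rats, which is not so for TGNT replicate 1 of the genotype table. Within each group of the genotype table, rats with more oligodendrocyte markers lie higher in Slc12a2. The orders differ in the treatment table, where TGTR replicate 5 lies apart at 219 RPM.

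The interneuron genes were Pvalb and Calb2, calcium-binding proteins of separate interneuron classes, Lhx6, a transcription factor of cells from the medial ganglionic eminence, and Erbb4, a neuregulin receptor of interneurons. Pvalb measured 21.0, 27.7, 38.4, 24.2 and 23.6 RPM in WTNT and 22.1, 29.6, 26.9, 25.4 and 23.3 RPM in TGNT, with a log2 fold change of -0.09 (95% interval -0.40 to 0.21). Pvalb of the treatment table measured 26.9, 30.0, 22.1 and 26.2 RPM in TGNT and 25.8 to 34.2 RPM, median 29.7, in TGTR, with a log2 fold change of 0.16 (95% interval -0.04 to 0.37). The highest wild-type rat was replicate 3, and without it the sign with genotype turned to 0.06.

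Calb2 measured 6.3, 6.44, 10.0, 10.8 and 10.8 RPM in WTNT and 7.62, 10.6, 9.63, 9.48 and 12.2 RPM in TGNT, with a log2 fold change of 0.18 (95% interval -0.21 to 0.56). Calb2 of the treatment table was at 9.81, 6.25, 12.3 and 11.3 RPM in TGNT and at 8.32 to 13.6 RPM, median 10.0, in TGTR, with a log2 fold change of 0.07 (95% interval -0.31 to 0.45). The groups overlapped in both tables. For Lhx6 the log2 fold changes were 0.22 and -0.08, and for Erbb4 they were 0.13 and 0.06. With genotype, Erbb4 was at 0.24 without WTNT replicate 3 and Lhx6 at 0.33 without WTNT replicate 5.

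Of 17 other interneuron genes with a row, 15 had a mean of at least 10 counts with genotype, of which 11 were above 0 with a median log2 fold change of 0.11. With treatment 15 of 17 such genes were above 0, with a median of 0.16, and no gene was called in either comparison. Their summed level was between 516.6 and 778.9 RPM in WTNT, where replicates 3 and 5 were the highest as in Gad1, and between 609.0 and 706.8 RPM in TGNT. It was between 519.1 and 712.3 RPM in TGNT and 574.5 to 764.8 RPM in TGTR of the treatment table. With genotype, 1 gene of the list had an unadjusted p under 0.05, Crhbp. Its log2 fold change was -0.24, lower in TGNT, with an unadjusted p of 0.0349 and an adjusted p of 1 in edgeR's quasi-likelihood test. Unadjusted p-values under 0.05 with treatment belonged to 4 of them, all higher in TGTR: Sst at 0.27, Satb1 at 0.39, Cort at 0.64 and Elfn1 at 0.20 on the log2 scale. Their adjusted p-values in edgeR's quasi-likelihood test were 0.964 to 0.99. Crhbp and these 4 genes were picked out after their values were seen. Sst and Cort encode peptides of a class of interneurons, and Satb1 and Elfn1 encode a nuclear factor and an adhesion protein of these cells.

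Other genes of GABA and glycine handling formed a further list of 30, of which 29 had a row and 24 a mean of at least 10 counts. With genotype 11 of the 24 were above 0 and 13 below, with a median log2 fold change of -0.01. Their summed level was between 4880.3 and 5075.2 RPM in WTNT and between 4698.2 and 4866.7 RPM in TGNT. These ranges do not overlap, a description with no test. The sum leans on abundant genes such as Glul, which by itself measured between 1209 and 1455 RPM. The mean log2 RPM over genes averaging 10 counts or more, which weights them equally, did overlap. It was 5.733 to 6.059 in WTNT and 5.828 to 5.945 in TGNT. With treatment the summed level was between 4675.6 and 4819.5 RPM in TGNT and between 4395.5 and 4749.4 RPM in TGTR. For single genes, the groups of the genotype table did not overlap for 1, Iqsec3, against 0.513% of all genes. It measured between 337.1 and 384.9 RPM in WTNT and between 305.6 and 336.6 RPM in TGNT. With treatment 12 were above and 12 below, with a median of 0.0017. No gene of the list was called, and the unadjusted p was under 0.05 for 1 gene with genotype and for 4 with treatment. Named after their values were seen, they include Iqsec3, an exchange factor that binds the scaffold protein, which was among them in both, at -0.16 in each. The others were Slc38a1, a glutamine carrier, at 0.15, Kctd8, an auxiliary GABA-B subunit, at 0.55, and Plcl1, which binds GABA-A receptors, at 0.16, with adjusted p-values of 0.964 to 0.985 in edgeR's quasi-likelihood test.

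Rats of the same group differed more than the groups did for several members. Gabra3, an α subunit gene, measured 14.9, 25.0, 53.8, 18.8 and 43.3 RPM in WTNT, a 3.6-fold range, and 32.1, 40.4, 41.6, 39.1 and 36.3 RPM in TGNT, a 1.3-fold range. WTNT replicates 3 and 5 lay above all TGNT rats and the other 3 below them. Gabra3 of the treatment table measured 44.1, 15.5, 21.2 and 20.6 RPM in TGNT, again with replicate 1 apart, and 22.7 to 45.5 RPM with a median of 29.6 RPM in TGTR. Its log2 fold changes of 0.28 (95% interval -0.27 to 0.83) and 0.33 (95% interval -0.25 to 0.90) had intervals that passed 1.5-fold. Without WTNT replicate 3 it was 0.56 with an unadjusted p of 0.0174 and an adjusted p of 0.778, and without TGNT replicate 1 of the treatment table it was 0.73 with an unadjusted p of 0.00339 and an adjusted p of 0.324.

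Rats that were high in Gabra3 were, in some groups, also high in other members. In WTNT, replicates 3 and 5 were the highest rats in Gabra3, Gabrg3, Glra3, Gabrq, Gad1, Erbb4, Slc6a11 and Abat. Of the 25 members with a mean of at least 10 counts in both tables, replicate 5 was the highest WTNT rat in 10 and replicate 3 in 8, whereas replicate 2 was the highest in none. In TGNT of the treatment table, replicate 1 was the highest in 12 of the 25. Gabra4, Gabrd and Gphn stood the other way in the same rats, with Gabra4 at 103 and 91.9 RPM in WTNT replicates 3 and 5 against 134 to 145 RPM in the other 3. These genes were singled out after their values were seen.

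**Figure D4:**
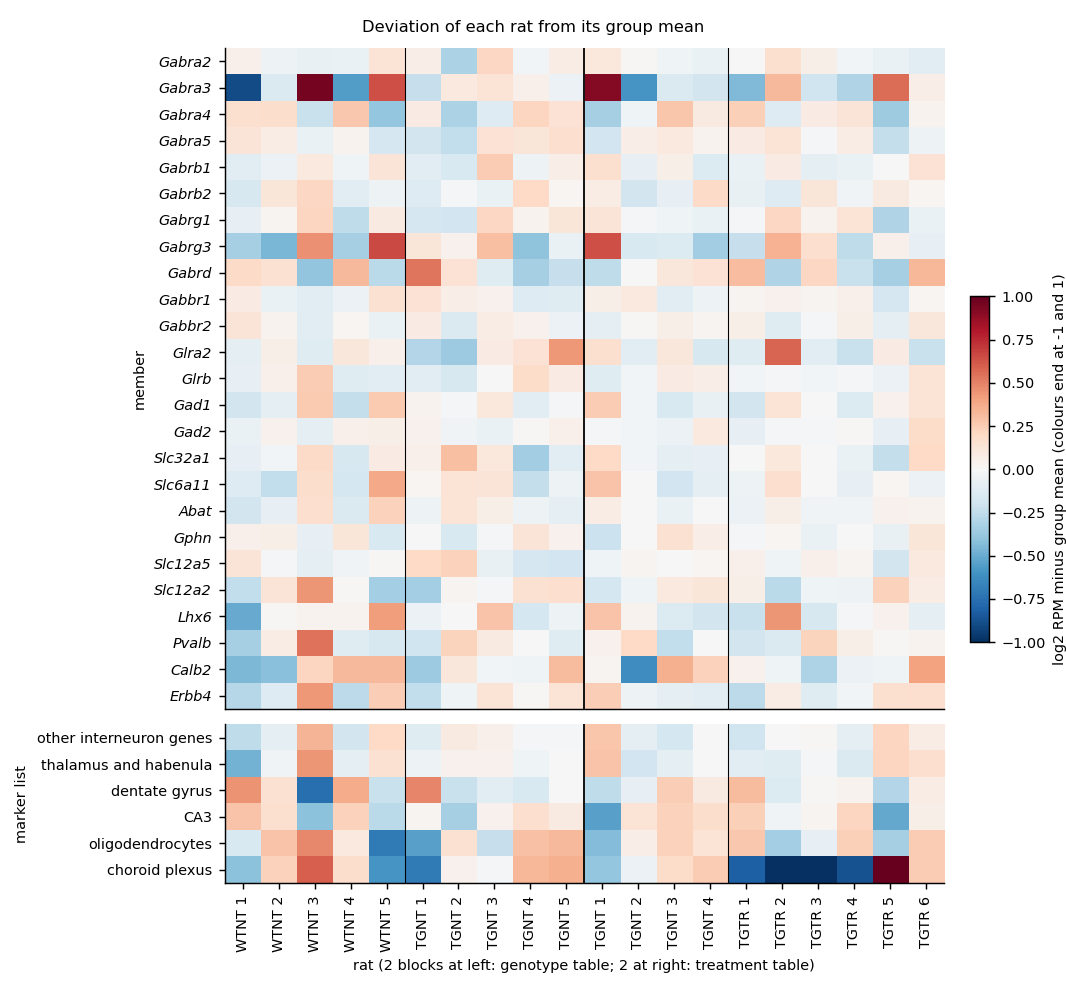
Each column is a rat and each row a member with a mean of at least 10 counts in both tables (top) or a marker list (bottom), and the colour gives log2 RPM minus the mean of the group, from blue at -1 to red at 1. WTNT replicates 3 and 5 and TGNT replicate 1 of the treatment table are red in Gabra3 and Gabrg3 and blue in the dentate gyrus and CA3 lists.

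Marker lists of other regions moved with these levels in some groups. Summed CA3 markers, of which Iyd and Coch were at 0 counts in some rats, were at 992.7 and 1091.2 RPM in WTNT replicates 3 and 5 and at 1474.0 to 1607.3 RPM in the other 3. In these 5 rats the order in Gabra3 was the exact reverse of that in CA3 markers. The same was not seen in TGNT of the genotype table, where from highest to lowest Gabra3 ran through replicates 3, 2, 4, 5 and 1 and CA3 markers through 4, 5, 3, 1 and 2. TGNT replicate 1 of the treatment table held 695.5 RPM against 1117.1 to 1191.7 RPM in its group, and TGTR replicates 5 and 2, the highest in Gabra3, held 607.9 and 843.9 RPM against 882.3 to 1019.9 RPM. Summed markers of the thalamus and habenula, of which Gbx2 was at 0 counts in every rat, were at 184.5 and 151.7 RPM in WTNT replicates 3 and 5 and at 97.9 to 133.2 RPM in the other 3. They were at 126.6 RPM in TGNT replicate 1 of the treatment table against 91.2 to 104.2 RPM in its group. In TGTR, replicate 5 held the most of these markers at 150.6 RPM. TGTR replicate 2, second highest in Gabra3, held the second lowest sum at 119.1 RPM. By group, CA3 markers summed to between 992.7 and 1607.3 RPM in WTNT and between 915.1 and 1291.4 RPM in TGNT, and to between 695.5 and 1191.7 RPM in TGNT and 607.9 to 1019.9 RPM in TGTR of the treatment table. Thalamus and habenula markers summed to between 97.9 and 184.5 RPM in WTNT and between 151.4 and 161.6 RPM in TGNT, and to between 91.2 and 126.6 RPM in TGNT and between 117.5 and 150.6 RPM in TGTR of the treatment table. Between groups, the 4 CA3 markers that averaged 10 counts or more were all lower in TGNT than in WTNT, with a median log2 fold change of -0.18, and all lower in TGTR than in TGNT, with a median of -0.24. Thalamus and habenula markers were above 0 for 5 of 8 genes with genotype and for 7 of 9 with treatment. With treatment these included Slc17a6, the vesicular glutamate transporter of the thalamus, at 0.87 with an adjusted p of 0.4 in edgeR's quasi-likelihood test. With genotype, Ramp3 was the only gene of this list with an unadjusted p under 0.05, and it was lower in TGNT. Its log2 fold change was -0.68, with an unadjusted p of 0.025 in the same test, and it was not called. The part of these region markers in the levels of Gabra3, Gabrg3 and Glra3 was not tested.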

How the data were processed

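Poly(A) RNA libraries from 20 female rats, 1 per rat, were made with a stranded kit. Per the labels, the authors used bcl2fastq 2.17, Bowtie2 2.1.0 and RSEM 1.2.15 on rn6, and deposited RSEM estimated counts per gene symbol. The annotation and read filters are not given in the sources used here. The authors also deposited a TMM-scaled signal (RPM, reads scaled to a common library size), made separately for each table.

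Estimated counts were rounded, and all 17168 genes of each table were tested with edgeR 4.0.16 (TMM, quasi-likelihood, R 4.3.3) and Benjamini-Hochberg adjustment. Each gene was also tested on RPM with an exact permutation test, two-sided. The tests were checked on simulated data. Alternatives were DESeq2 1.42.0, limma 3.58.1, other scalings and filters, a replicate block and leaving out each rat. P-values set the difference between groups against the spread between rats of a group.

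The members and lists were chosen with earlier results of these data known. Members with an unadjusted p under 0.05 or groups that do not overlap, and 10 members fixed by role (Gad1, Gad2, Slc32a1, Pvalb, Calb2, Gabra5, Gabrd, Gabbr1, Slc12a5 and Glrb), are given for each rat, or as range and median for the 6 TGTR rats. Other genes are named where their level stands beside a member.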

Additional observations from a re-analysis of the deposited data

Results flagged for a closer look

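In 10 of 116 sets of RPM, each a member in a group, a single rat stood apart from the rest by Dixon's criterion, where chance gives about 1 in 20, or 5.8. TGNT replicate 1 of the treatment table was high in Gabrg3 (12.8 RPM, next 7.44), Gabrq (2.45 RPM, next 0.376) and Erbb4 (97.2 RPM, next 78.9). TGTR replicate 2 was high in Glra2 (24.8 RPM, next 17.5), Slc6a11 (82.5 RPM, next 74.4) and Lhx6 (26.7 RPM, next 20.2). TGTR replicate 6 was high in Glrb (107 RPM, next 96.6) and Gad2 (152 RPM, next 135). TGTR replicate 5, the library with the most choroid plexus markers, was low in Gabbr1 (1200 RPM, next 1362). TGNT replicate 3 of the genotype table had Gabra6 at 0.254 RPM, from 2 counts, while the other 4 rats were at 0.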

How the results depend on the processing

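No member was called under any of the 18 alternatives of the genotype or the 19 of the treatment comparison, and the number of members above 0 ranged from 18 to 22 and from 13 to 17. The number with an unadjusted p under 0.05 depended on the setting. With genotype it was 2, and 1 with DESeq2, with limma and 1 or 0.1 added, with a filter on low counts and with a replicate block. Leaving out single rats gave 0 to 5: 5 without WTNT replicate 3, 4 without TGNT replicate 2, 1 without TGNT replicate 3, 4 or 5 and 0 without WTNT replicate 1, 2 or 4. With treatment it was 3, and 5 with DESeq2, 1 with a replicate block and 3 to 8 without single rats: 8 without TGNT replicate 1, 7 without TGTR replicate 2 and 5 without TGTR replicate 1 or 4. The cause was not tested. Differences of 7 members turned sign with genotype and of 7 with treatment. Among the members given per rat, with genotype these were Gabrd (-0.0003 and -0.0006) and Slc32a1 (-0.0013 and -0.0016) with limma, and Glrb (0.002) with library sizes alone. Without single rats, Gabrd ranged from -0.1395 to 0.0889, Gabbr1 from -0.0213 to 0.057, Glrb from -0.0693 to 0.0501, Slc32a1 from -0.079 to 0.0773 and Pvalb from -0.1726 to 0.0585 with genotype, and Calb2 from -0.1034 to 0.1911 with treatment. Calb2 was at -0.0085 with the replicate block and at -0.0358 in the same rats without it, a fit chosen after the data were seen. Of the other members, over all settings, Gabra4 ranged from -0.1262 to 0.019 and Slc6a11 from -0.0604 to 0.1064 with genotype. With treatment, Erbb4 ranged from -0.0235 to 0.1548, Gabra4 from -0.0365 to 0.1615, Gabrq from -0.27 to 1.7985, Gphn from -0.0823 to 0.0354, Lhx6 from -0.1899 to 0.0206 and Slc6a11 from -0.1554 to 0.0148. The median of the members with treatment also turned sign, to -0.0122 with the block. Correlations of same-numbered rats did not settle whether the replicate numbers pair the rats. They ran from -0.19 to 0.303 with genotype and from -0.528 to 0.0928 with treatment. Of the numbers, 2 of 5 and 0 of 4 correlated best with their own. Gabra6 and Gabre were not tested under the filter.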
